A study of Mus musculus with 6 samples.

Results

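The transcripts described here are those of the nuclear genes for respiratory complexes II, III, IV and V and for cytochrome c, measured in the left ventricle of male C57BL/6 mice with and without MURC. The 63 genes were taken by symbol, as every gene on the array whose single annotated symbol begins with Sdh and a subunit letter or Sdhaf, with Uqc, with Cox and a digit, or with Atp5, plus Cycs and Cyc1. They are 63 of 19938 genes with a symbol of their own, and 87 of 35556 probe sets. Each gene was read from its probe set with the highest mean signal. MURC, also called cavin-4, is a coiled-coil protein of muscle caveolae encoded by Cavin4. The MURC knockout (KO) group holds 3 samples, aged 11, 11 and 13 weeks, and the wild type (WT) group 3 samples, aged 13, 13 and 12 weeks. Both groups share strain, sex and tissue, and the labels do not describe how the knockout allele was made. The labels do not say that each sample is a separate animal, so p-values speak only of the spread among the 6 arrays, which could be technical.

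These complexes lie in the inner mitochondrial membrane. Complex II, succinate dehydrogenase, passes electrons from succinate to ubiquinone, complex III passes them from ubiquinol to cytochrome c, and complex IV, cytochrome c oxidase, hands them to oxygen. Complex V, the ATP synthase, lets protons pumped by the chain, by complexes III and IV among others, flow back through its Fo ring. It makes ATP in its F1 head. Heart muscle depends on this chain for nearly all of its ATP, and several complex IV subunits exist as a heart and muscle form and a form found in most tissues. Assembly factors insert subunits, haem and copper and are not part of the finished enzymes.

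All arrays followed their labels at the targeted gene. Cavin4 measured 5.38, 5.74 and 5.59 on the log2 scale in KO ventricles, against 8.75, 8.62 and 8.07 in WT ventricles, which is -2.91 between the means (SE 0.18, limma adjusted p = 0.012). Whether its probe set lies in the deleted part is unknown. The ventricular cardiomyocyte markers Myh6, Myl2, Myl3, Tnnt2, Tnni3, Actc1 and Ryr2 were bright, between 11.54 and 13.15, and 0 of the 7 had an unadjusted p under 0.05. The atrial genes Myl7 and Myl4 stood apart in KO replicate 2, at 7.22 and 8.67, against at most 4.11 and 5.61 on any other array, and the summed signal of the 4 atrial markers ran from 1829 to 3346 in KO and from 1692 to 2313 in WT. WT replicate 1 was brighter than the other arrays, with a median of 4.71 against 4.60 to 4.65, and held the highest value of 30 of the 62 members tested. The medians and the count of members with an unadjusted p under 0.05 are also given without WT replicate 1, and that count without KO replicate 2.

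No member of complexes II to V passed the threshold of 0.05 after Benjamini-Hochberg adjustment over all 24898 probe sets tested by limma, where 0.00402% of probe sets did. The smallest adjusted p of a member was 0.0614, that of Sdhaf4, which passed in limma after quantile normalization with an adjusted p of 0.0445. Of the 63 members 62 could be tested, and Cox7b2, a testis form, fell below the filter on low signal. At an unadjusted p under 0.05 there were 18 members or 29.0%, 6 of them higher in KO and 12 lower, against 13.7% of all probe sets, 4.71% of which were higher and 9.02% lower. The share differs with brightness. At or above the median member's signal of 10.73, 8 of 31 members or 25.8% had such a p, 2 higher and 6 lower, against 34.4% of the 436 probe sets there, 30 higher and 120 lower. Below that signal, 10 of 31 members or 32.3% had one, 4 higher and 6 lower, against 13.4% of 24462 probe sets, which reach down to the filter at 3.45. Their genotypes did not overlap at 22 members or 35.5%, against 19.0% of all probe sets and 47.9% of the bright ones.

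The changes were small and ran in both directions inside every complex. The median log2 change was -0.03 over the 8 members of complex II, 0.04 over the 12 of complex III, -0.05 over the 24 of complex IV and -0.01 over the 17 of complex V, against -0.04 over all probe sets tested. The spread of the array medians was 0.05, 0.05, 0.05 and 0.06 (pooled SD of the 3 arrays of a genotype), so none of the 4 medians exceeded the spread between replicates as reported, and that of complex IV was about equal to it. Without WT replicate 1 the medians were 0.00, 0.08, -0.02 and 0.01 for complexes II, III, IV and V, and 0.01 for subunits and 0.01 for assembly factors. Complex III exceeded its spread of 0.0450 there, after quantile normalization (0.0686), after median centring (0.0600) and without KO replicate 3 (0.0533). Complex IV exceeded its 0.0519 without KO replicate 1 (-0.0775), WT replicate 2 (-0.0917) or WT replicate 3 (-0.0900). It also did with the 50th percentile filter (-0.0567). Complex II exceeded its 0.0525 without KO replicate 2 (-0.0600), and barely with age as a covariate (-0.0527). In each case the spread was that of all 6 arrays. After quantile normalization the medians of complexes II and V were 0.02 and 0.02, the opposite sign. The median was -0.02 over 45 subunits and -0.02 over 15 assembly factors, and 0.02 and 0.01 after quantile normalization. The difference between subunits and assembly factors was not tested. Among the subunits 16 were higher and 28 lower, and 14 or 31.1% had an unadjusted p under 0.05. Among the assembly factors 6 were higher and 9 lower, and 4 or 26.7% had such a p. The share was 13.7% of all probe sets, 34.4% of those at or above the median member's signal and 13.4% of those below it. The median signal was 11.34 for the subunits and 6.78 for the assembly factors, so the 2 groups differ in brightness. The whole set leaned lower, with 22 members higher and 39 lower, and so did the arrays as a whole. Of all probe sets tested 9985 were higher and 14700 lower, and of the bright ones 152 were higher and 275 lower. The lean is therefore not particular to the members. Their median was 0.01 after quantile normalization and 0.01 without WT replicate 1.

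**Figure D1:**
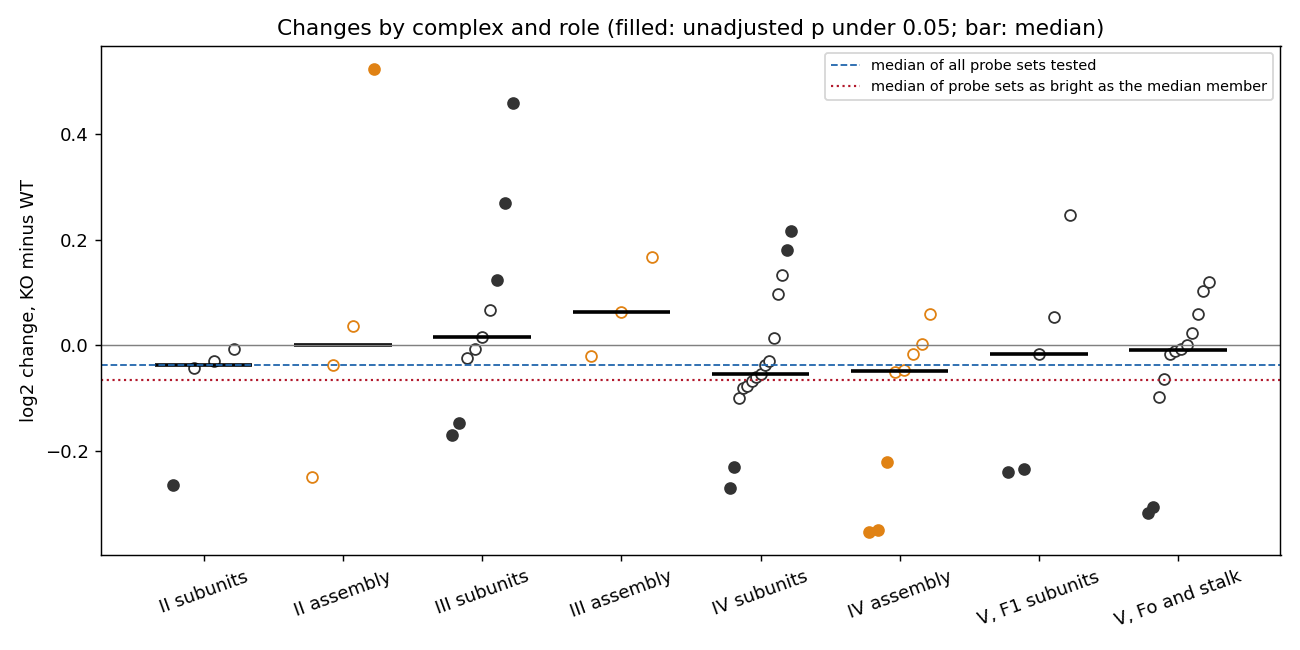
Log2 change (KO minus WT, y axis) of the tested members other than Cycs and Cox7a2l, by complex and role. Points are genes, filled where the unadjusted p is under 0.05, and black bars are group medians. The dashed line is the median of all probe sets tested (-0.04), and the dotted line that of those as bright as the median member or brighter (-0.07). Every complex holds genes on both sides of 0, and the medians lie between -0.05 and 0.06.

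The members with the clearest differences were Sdhaf4, Uqcr11 and Uqcrq, which measured higher in KO, and Sdhd, Atp5g1, Atp5g2, Atp5d, Atp5c1, Cox8a, Cox6a1, Cox10, Cox15 and Cox18, which measured lower in KO. These 13 of the 18 kept an unadjusted p under 0.05 with each of the 6 arrays left out. The other 5, Uqcrc1, Uqcrc2, Uqcrfs1, Cox4i1 and Cox5b, did not. The 13 were picked by p in these same data, and the share of all probe sets that would do so was not computed. Without KO replicate 2, the array with the atrial signal, 17 members had such a p, 5 higher and 12 lower, against 12.0% of all probe sets. Without WT replicate 1 there were 12 higher and 11 lower, against 6 and 12 with it, and 12.5% of all probe sets had such a p. The number of higher members was 3 without KO replicate 3, without WT replicate 2 or without WT replicate 3. Of all probe sets 9.24%, 12.4% and 13.4% had such a p there, in either direction.

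**Figure D2:**
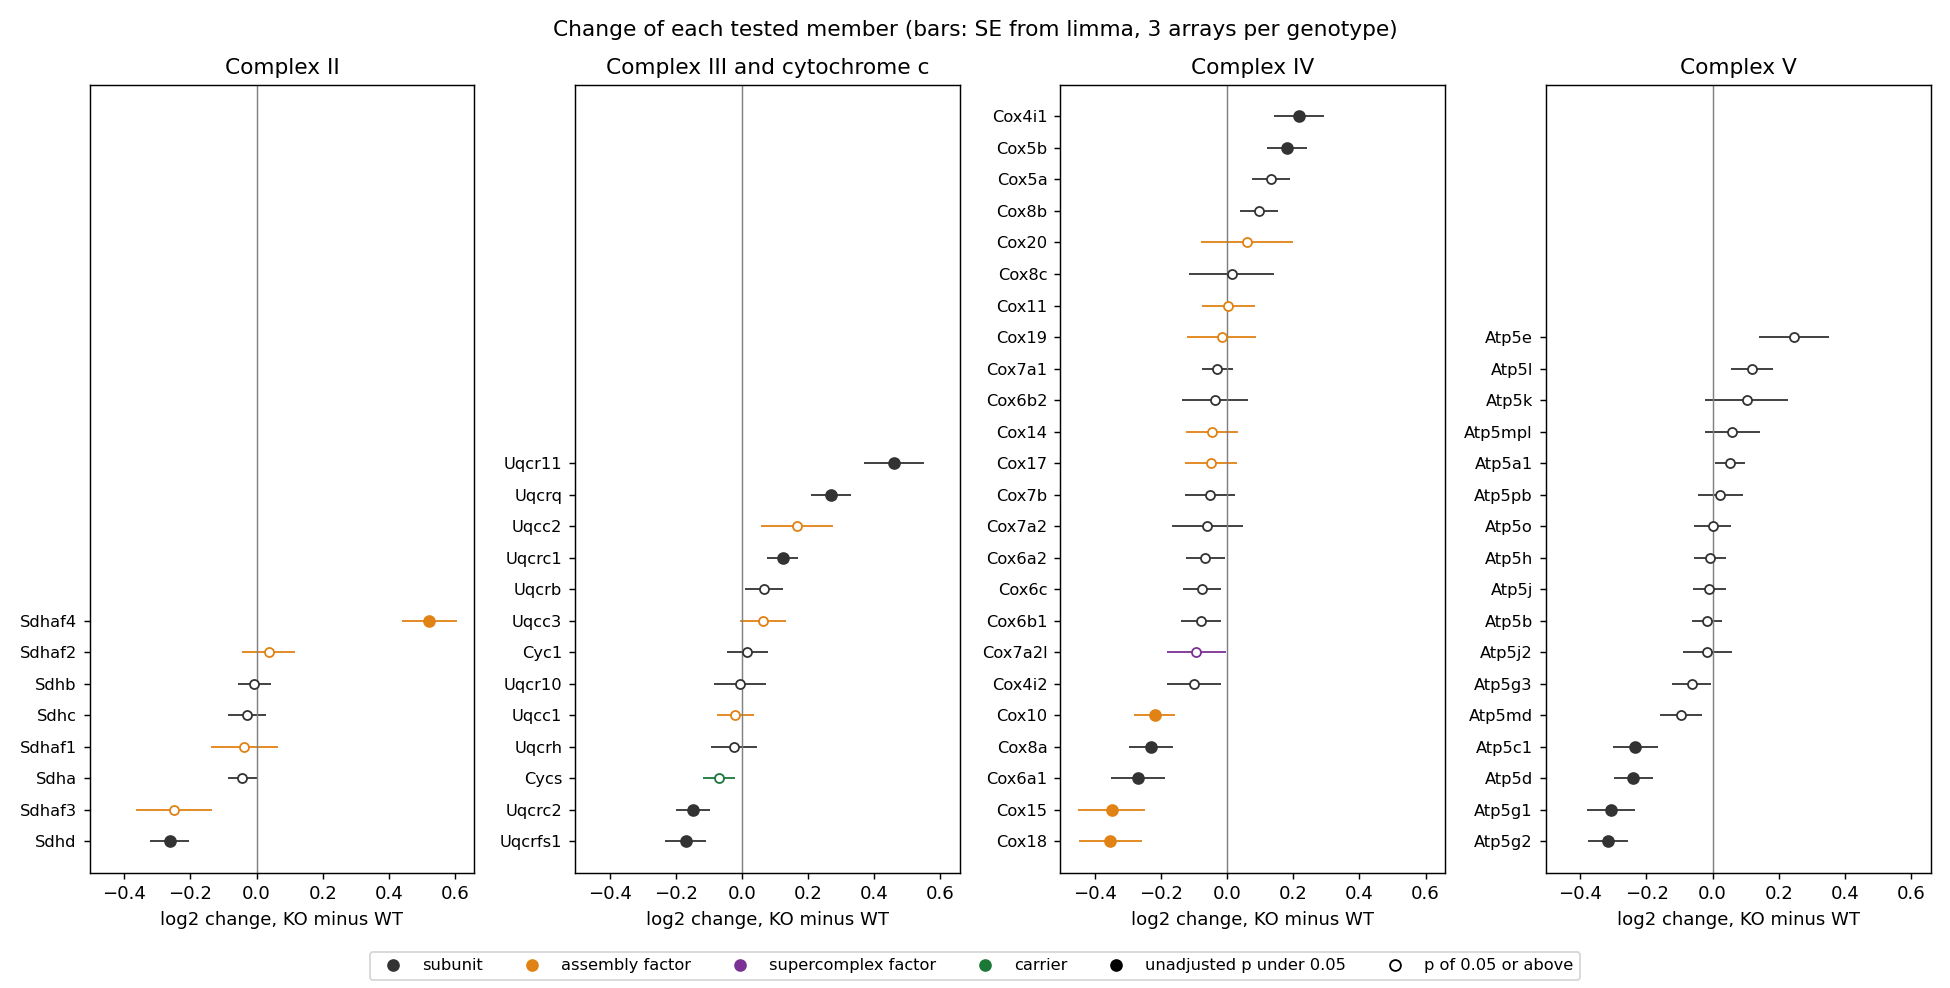
Log2 change (KO minus WT, x axis) of the 62 tested members, 1 row per gene, by complex; bars are the SE from limma with 3 arrays per genotype, and filled symbols have an unadjusted p under 0.05. Changes run from -0.35 (Cox18) to 0.52 (Sdhaf4), and complexes II, III and IV have filled symbols on both sides of 0.

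The promoters of 4 of these genes are shown because they carry letters that belong to known regulators of respiratory genes. RefSeq windows from 250 bases before to 50 bases after the start were matched for 49 of the 63 members (build GRCm38.p6). Searched on both strands, the core GCGCATGCG of nuclear respiratory factor NRF1 was found in 7 of the 49, or 14.3%, against 2.61% of 17491 protein-coding genes and 1.95% of all 27025 genes in the table. The ETS letters CCGGAAG, bound by GABPA among other factors, were found in 20 members, or 40.8%, against 12.9% of protein-coding and 9.93% of all genes. The YY1 letters AAGATGGC were found in 6, or 12.2%, against 3.57% and 3.19%. The ETS letters stood in 5 of the 10 matched members that were lower at an unadjusted p under 0.05 and in 1 of the 4 that were higher, and the NRF1 core in 2 of the 10 and 2 of the 4. Such a match is a description of the letters, not a bound site. The stretches below run from 150 bases before to 10 bases after the start, 5′ to 3′ on the gene's strand, with matches in capitals. All 4 genes lie on the minus strand.
Uqcr11, chr10:80406812-80406971, with an ETS match at -66 and an NRF1 core that begins at -5: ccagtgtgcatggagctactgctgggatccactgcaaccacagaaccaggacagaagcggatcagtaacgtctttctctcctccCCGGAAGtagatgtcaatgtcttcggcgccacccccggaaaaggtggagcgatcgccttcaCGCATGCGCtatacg
Atp5g2, chr15:102671038-102671197, with overlapping NRF1 cores on both strands from -42: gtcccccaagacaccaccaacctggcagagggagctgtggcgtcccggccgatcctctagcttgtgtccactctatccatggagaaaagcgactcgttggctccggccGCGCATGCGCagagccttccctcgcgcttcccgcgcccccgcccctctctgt
Sdhd, chr9:50603840-50603999, with an ETS match at -46: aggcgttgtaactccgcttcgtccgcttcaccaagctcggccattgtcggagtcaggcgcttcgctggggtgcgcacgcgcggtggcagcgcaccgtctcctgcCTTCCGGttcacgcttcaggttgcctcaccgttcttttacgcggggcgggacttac
Cox8a, chr19:7217607-7217766, with an ETS match at -5 and another, past the stretch shown, at 33: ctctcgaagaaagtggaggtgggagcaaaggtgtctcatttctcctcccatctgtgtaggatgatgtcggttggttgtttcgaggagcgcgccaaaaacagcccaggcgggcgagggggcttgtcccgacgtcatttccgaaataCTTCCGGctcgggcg

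In complex II, 1 of the 4 subunits and 1 of the 4 assembly factors differed at an unadjusted p under 0.05. Each is 25.0%, against 13.7% of all probe sets and 34.4% of those at or above the median member's signal. Sdhd encodes a membrane anchor subunit that holds the ubiquinone site, and its promoter with the ETS match is shown above. It measured 10.70, 10.60 and 10.58 in KO ventricles, against 10.96, 10.86 and 10.85 in WT ventricles. Every KO array was below every WT array, at a difference of -0.26 on the log2 scale (SE 0.06, limma adjusted p = 0.121). The other subunits, the flavoprotein Sdha, the iron-sulfur protein Sdhb and the second anchor Sdhc, had log2 changes of -0.04, -0.01 and -0.03. After quantile normalization Sdha and Sdhb measured 0.03 and 0.04, the opposite sign.

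Sdhaf4, which assists the maturation of the flavoprotein Sdha, had the largest change of all members. It measured 5.95, 5.80 and 5.87 in KO and 5.40, 5.35 and 5.30 in WT, 0.52 higher on the log2 scale (SE 0.08, limma adjusted p = 0.0614), or 1.44-fold. The genotypes stood clear of each other on this probe set. A second Sdhaf4 probe set, dimmer at a mean of 3.89, measured a log2 change of -0.24 with overlapping genotypes, so the gene's probe sets disagree. Sdhaf3, an assembly factor of the iron-sulfur subunit, measured 5.75, 5.87 and 5.65 in KO against 6.22, 5.88 and 5.92 in WT, a change of -0.25 (limma adjusted p = 0.399), where the highest KO array lay just below the lowest WT array. Sdhaf1 and Sdhaf2 had log2 changes of -0.04 and 0.04, with overlapping genotypes.

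In complex III, 5 of 9 subunits or 55.6% had an unadjusted p under 0.05, 3 higher and 2 lower. The share was 13.7% of all probe sets and 34.4% of those at or above the median member's signal. Uqcr11 and Uqcrq encode small subunits without redox groups, and both measured higher. Uqcr11, whose promoter carries both an ETS match and an NRF1 core, measured 10.21, 10.04 and 10.37 in KO and 9.83, 9.68 and 9.73 in WT, 0.46 higher on the log2 scale (SE 0.09, limma adjusted p = 0.101) or 1.38-fold. Its second probe set gave 0.36, also without overlap. Uqcrq measured 10.02, 9.87 and 9.91 in KO and 9.65, 9.62 and 9.72 in WT, 0.27 higher (SE 0.06, limma adjusted p = 0.125). For both genes each KO array was above each WT array.

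The core proteins of complex III measured in opposite directions. Uqcrc1 measured 11.44, 11.44 and 11.47 in KO and 11.36, 11.33 and 11.29 in WT, 0.12 higher, while its partner Uqcrc2 measured 11.32, 11.36 and 11.24 in KO and 11.44, 11.45 and 11.47 in WT, a change of -0.15. The Rieske iron-sulfur protein gene Uqcrfs1 measured 9.78, 9.82 and 9.73 in KO and 10.04, 9.93 and 9.87 in WT, a change of -0.17. In these 3 genes the genotypes did not overlap, but the sizes were small, the limma adjusted p lay between 0.282 and 0.317, and each lost an unadjusted p under 0.05 in at least 4 of the 6 cases with an array left out. Uqcrb, a subunit at the ubiquinone site, was 0.07 higher with overlap. The remaining subunits, Cyc1 with its haem, the hinge protein Uqcrh and Uqcr10, differed by at most 0.02 in either direction. Of the assembly factors, Uqcc2 measured 0.17 higher with overlap, and Uqcc1 and Uqcc3 measured -0.02 and 0.06. Cytochrome c itself, encoded by Cycs, measured 11.79, 11.74 and 11.70 in KO and 11.82, 11.83 and 11.79 in WT, a change of -0.07, and the genotypes met at 11.79.

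In complex IV, Cox4i1, Cox5a and Cox5b measured higher, and the forms of Cox6a and Cox8 found in most tissues measured lower. Cox4i1, the common form of the largest nuclear subunit, measured 10.88, 10.71 and 10.93 in KO and 10.72, 10.57 and 10.58 in WT, 0.22 higher (SE 0.08, limma adjusted p = 0.279). Cox5b, a zinc-binding subunit, measured 11.49, 11.48 and 11.59 in KO and 11.42, 11.34 and 11.26 in WT, 0.18 higher (limma adjusted p = 0.269), and its second probe set gave 0.20. Cox5a, which joins Cox4i1 early in assembly, measured 10.41, 10.32 and 10.39 in KO and 10.30, 10.25 and 10.17 in WT, 0.13 higher (limma adjusted p = 0.368). The genotypes overlapped at Cox4i1, where KO replicate 2 lay just below WT replicate 1, and not at the other 2.

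Cox6a1 and Cox8a, the forms found in most tissues, measured lower. Cox6a1 measured 9.23, 9.34 and 9.19 in KO and 9.68, 9.46 and 9.43 in WT, a difference of -0.27 on the log2 scale (SE 0.08, limma adjusted p = 0.227). Cox8a, shown above with its ETS matches, measured 8.94, 8.85 and 8.77 in KO and 9.15, 9.05 and 9.05 in WT, a change of -0.23 (SE 0.07, limma adjusted p = 0.205). The genotypes did not overlap at either gene. The other 11 tested subunits of complex IV, Cox5a among them, had log2 changes that lay between -0.10 and 0.13. Cox7c and Cox16 stand only on probe sets with several symbols and were not read.

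**Figure D3:**
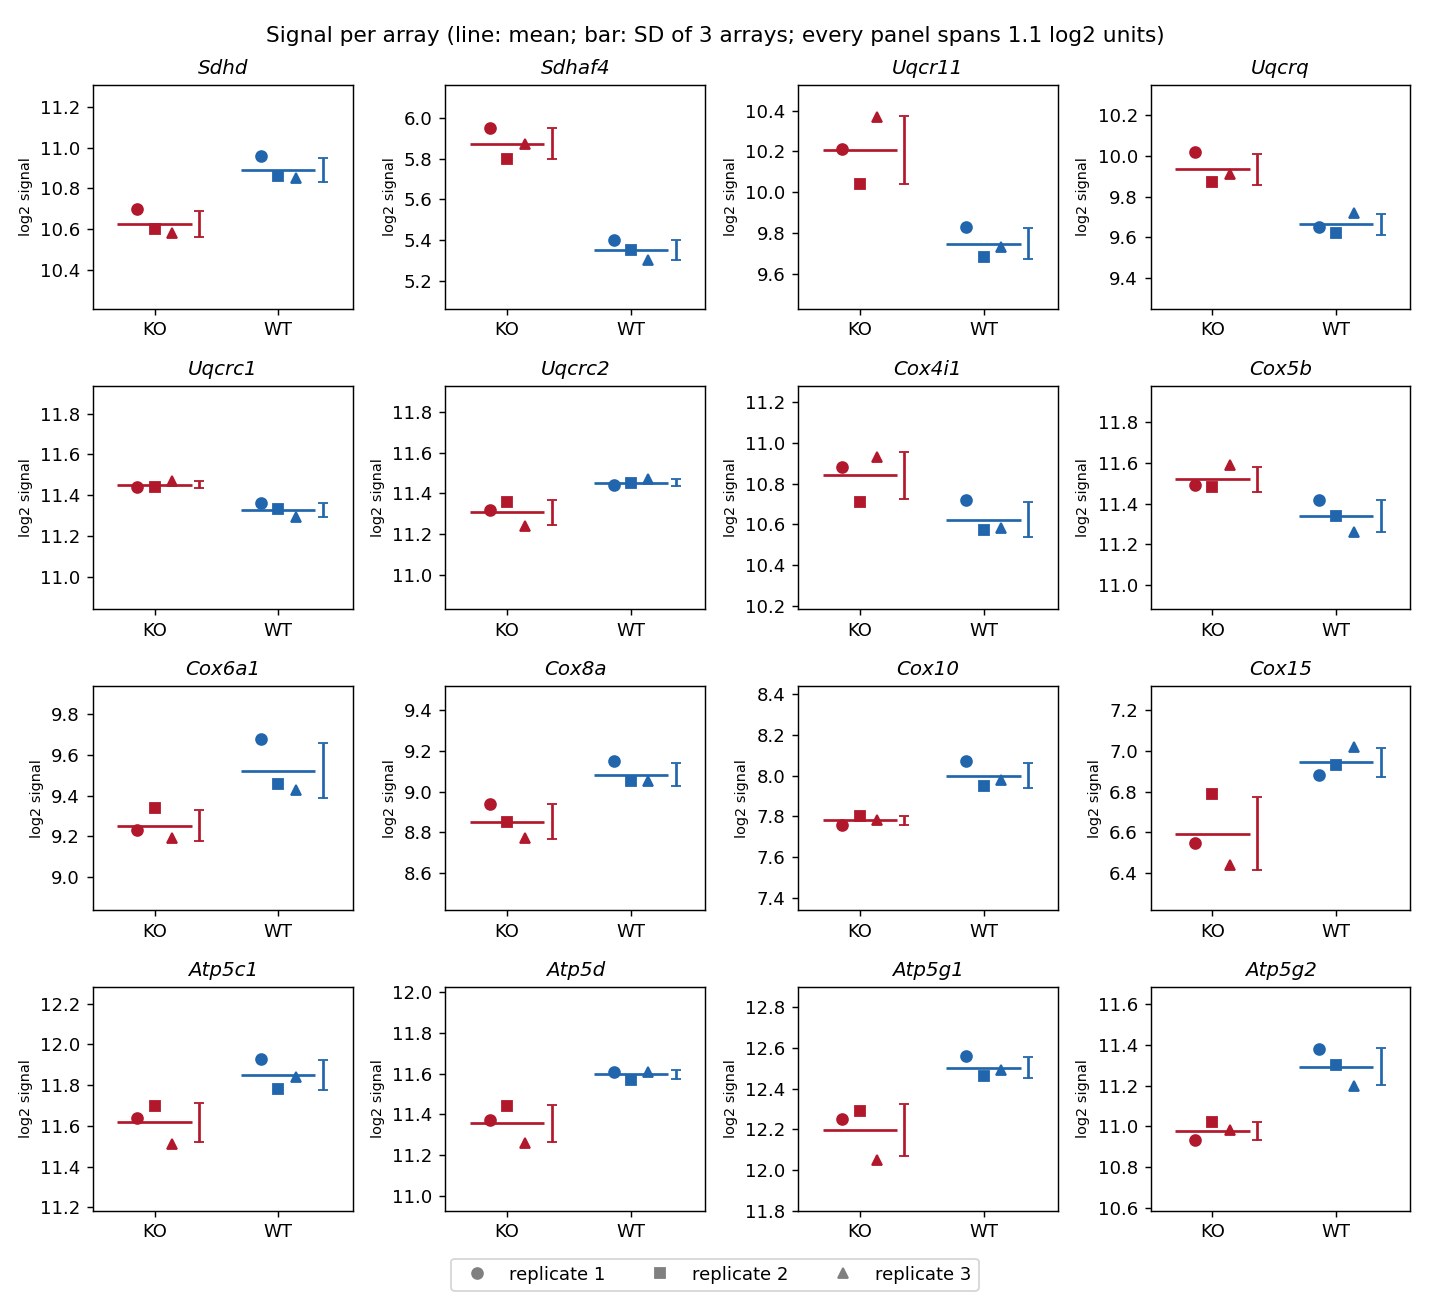
Log2 signal (y axis) of 16 members on each KO and WT array; symbols mark replicates, lines the mean and bars the SD of 3 arrays, and all panels span the same range. The genotypes are apart in every panel except Cox4i1, where KO replicate 2 at 10.71 lies below WT replicate 1 at 10.72. All 16 genes have an unadjusted p under 0.05, so the gap follows largely from their choice. Of all members tested, 35.5% did not overlap.

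Heart and common isoforms were compared within each array, since the difference between 2 probe sets removes any brightness shift that is equal for both. A shift that differs between probe sets is not removed. Only the change of that difference is read, because probe sets bind unequally and their levels cannot be set against each other. The heart form Cox8b measured 11.97, 11.87 and 11.91 in KO and 11.90, 11.80 and 11.76 in WT. Its difference from Cox8a was 3.03, 3.02 and 3.14 in KO and 2.75, 2.75 and 2.71 in WT, 0.33 larger in KO. The difference of the heart form Cox6a2 from Cox6a1 was 2.84, 2.66 and 2.86 in KO and 2.53, 2.59 and 2.63 in WT, 0.20 larger in KO. In both pairs the heart form was shifted up relative to its partner on every KO array. Taken alone, Cox8b had a log2 change of 0.10 and Cox6a2 of -0.07, both with overlap. The difference of Cox7a1, the heart form, from Cox7a2 overlapped between genotypes and had a log2 change of 0.03, with a spread of 0.09 in KO and 0.16 in WT (SD, n = 3). Cox4i2, a form found mainly in lung, was shifted down relative to Cox4i1 by 0.32, where Cox4i2 itself had a log2 change of -0.10.

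Of the 7 pairs compared, 5 did not overlap between genotypes, and the share among other pairs of probe sets was not computed. Taken singly, 19.0% of all probe sets and 47.9% of the bright ones did not overlap. Each of the 5 pairs holds a gene that had an unadjusted p under 0.05 by itself in limma. Those of Atp5g1 and Atp5g2 with Atp5g3 also share a gene, so the 5 are not separate results. Each of these 5 had p = 0.1 in the exact two-sided permutation test, the smallest that 3 arrays against 3 allow, and an adjusted p of 0.14 over the 7 pairs, so no pair could pass the threshold. The 3 genes Atp5g1, Atp5g2 and Atp5g3 encode the same mature c subunit of the Fo ring behind different import sequences, and they supplied the last 3 pairs. Atp5g1 and Atp5g2 were each shifted down relative to Atp5g3, by 0.24 and 0.25, without overlap, while the difference between Atp5g1 and Atp5g2 had a log2 change of 0.01 and overlapped.

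**Figure D4:**
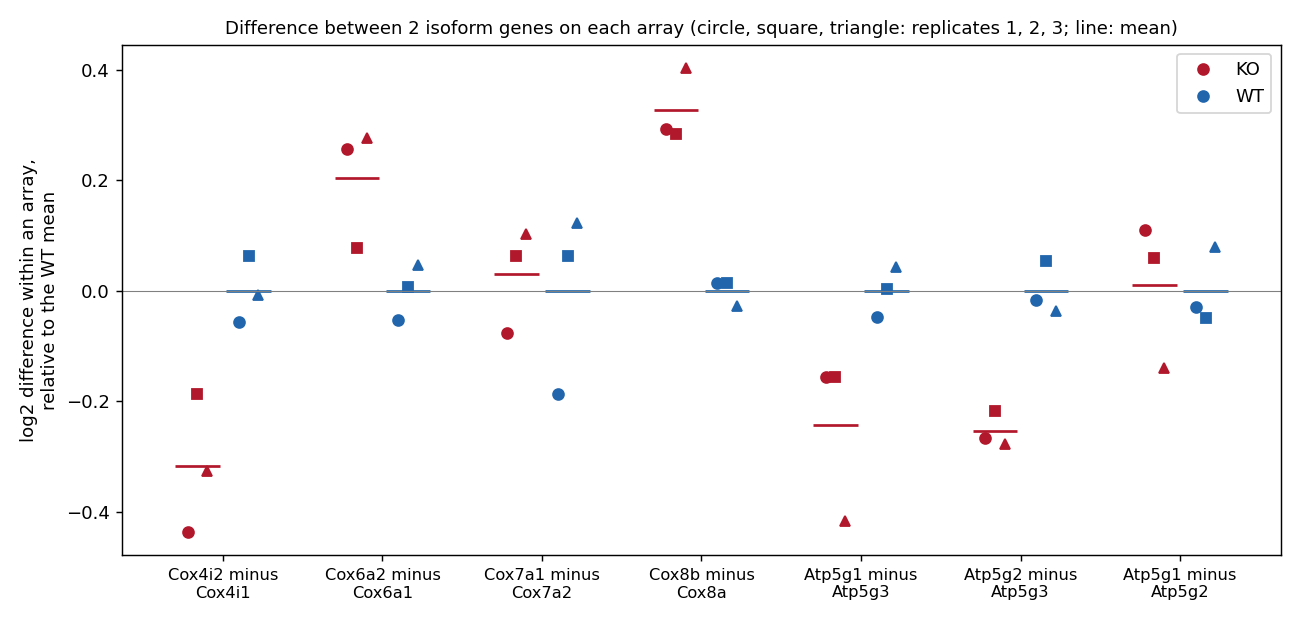
Log2 difference between 2 isoform genes on the same array (y axis, relative to the WT mean of that pair), with KO at the left and WT at the right of each pair and lines at the means. KO and WT stand apart in 5 of 7 pairs, and overlap for Cox7a1 with Cox7a2 and for Atp5g1 with Atp5g2.

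Among the assembly factors of complex IV, 3 of 8 or 37.5% had an unadjusted p under 0.05, all lower. Of all probe sets 13.7% had such a p, and 9.02% had one and were lower. Cox10 and Cox15 encode successive enzymes that turn haem B into haem A, the haem of cytochrome c oxidase. Cox10 measured 7.76, 7.80 and 7.78 in KO and 8.07, 7.95 and 7.98 in WT, a change of -0.22 (SE 0.06, limma adjusted p = 0.194). Cox15 measured 6.55, 6.79 and 6.44 in KO and 6.88, 6.93 and 7.02 in WT, a change of -0.35 (SE 0.10, limma adjusted p = 0.212). Cox18, which helps insert a mitochondrially encoded subunit into the membrane, measured 6.59, 6.72 and 6.49 in KO and 7.10, 6.87 and 6.89 in WT, a change of -0.35 (SE 0.10, limma adjusted p = 0.185). The genotypes did not overlap at any of the 3. The copper chaperones Cox11, Cox17 and Cox19 had log2 changes of 0.00, -0.05 and -0.02, and Cox14 and Cox20 of -0.05 and 0.06, all with overlap. Cox7a2l, a factor that joins complexes III and IV in supercomplexes, had a log2 change of -0.09, and its second probe set 0.02.

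In complex V, 4 of 17 subunits or 23.5% had an unadjusted p under 0.05, all lower, with 2 in the F1 head and stalk and 2 in the Fo ring. Of all probe sets 13.7% had such a p. Of those at or above the median member's signal 34.4% had one, 30 higher and 120 lower. The c subunit genes Atp5g1 and Atp5g2 had the largest changes. Atp5g1 measured 12.25, 12.29 and 12.05 in KO and 12.56, 12.46 and 12.49 in WT, a difference of -0.31 on the log2 scale (SE 0.07, limma adjusted p = 0.139). Atp5g2, with the NRF1 core in its promoter, measured 10.93, 11.02 and 10.98 in KO and 11.38, 11.30 and 11.20 in WT, a change of -0.32 (SE 0.06, limma adjusted p = 0.101). Every KO array was below every WT array on all probe sets of these genes, 2 of Atp5g1 and 3 of Atp5g2, and probe sets of the same gene are not separate evidence. Atp5g3 measured 11.73, 11.77 and 11.79 in KO and 11.93, 11.78 and 11.77 in WT, a change of -0.06 with overlap.

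The gamma and delta subunits of the rotating central stalk measured lower as well. Atp5c1, the gamma subunit, measured 11.64, 11.70 and 11.51 in KO and 11.93, 11.78 and 11.84 in WT, a change of -0.23 (SE 0.07, limma adjusted p = 0.209). Atp5d, the delta subunit, measured 11.37, 11.44 and 11.26 in KO and 11.61, 11.57 and 11.61 in WT, a change of -0.24 (SE 0.06, limma adjusted p = 0.152). The third protein of that stalk, epsilon, encoded by Atp5e, went the other way at 8.71, 8.62 and 8.81 in KO and 8.68, 8.43 and 8.29 in WT, 0.25 higher with overlap (limma adjusted p = 0.367). The catalytic head itself, formed by Atp5a1 and Atp5b, had log2 changes of 0.05 and -0.02. The 10 other Fo and peripheral stalk subunits, Atp5g3 included, had log2 changes that lay between -0.10 and 0.12. Atp5l, a membrane subunit that joins the enzyme's dimers, was highest at 0.12 with overlap. All 6 of its probe sets were higher, each with overlapping genotypes, and they are not separate evidence.

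Several members are covered by more than 1 probe set. Probe sets of a gene read the same RNA on the same arrays, so their agreement says nothing on the spread among samples. Of 15 genes with several probe sets, 9 had all of them on the same side of 0, among them Uqcr11, Cox5b, Atp5g1, Atp5g2 and Atp5l. The probe sets disagreed in sign for Sdhaf4, Cycs, Cox7b, Cox7a2l, Uqcc2 and Atp5pb. Of these only Sdhaf4 had a probe set with an unadjusted p under 0.05. Whether some of the probe sets lie in copies of a gene elsewhere in the genome was not tested, so the values of these genes are uncertain to that extent.

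**Figure D5:**
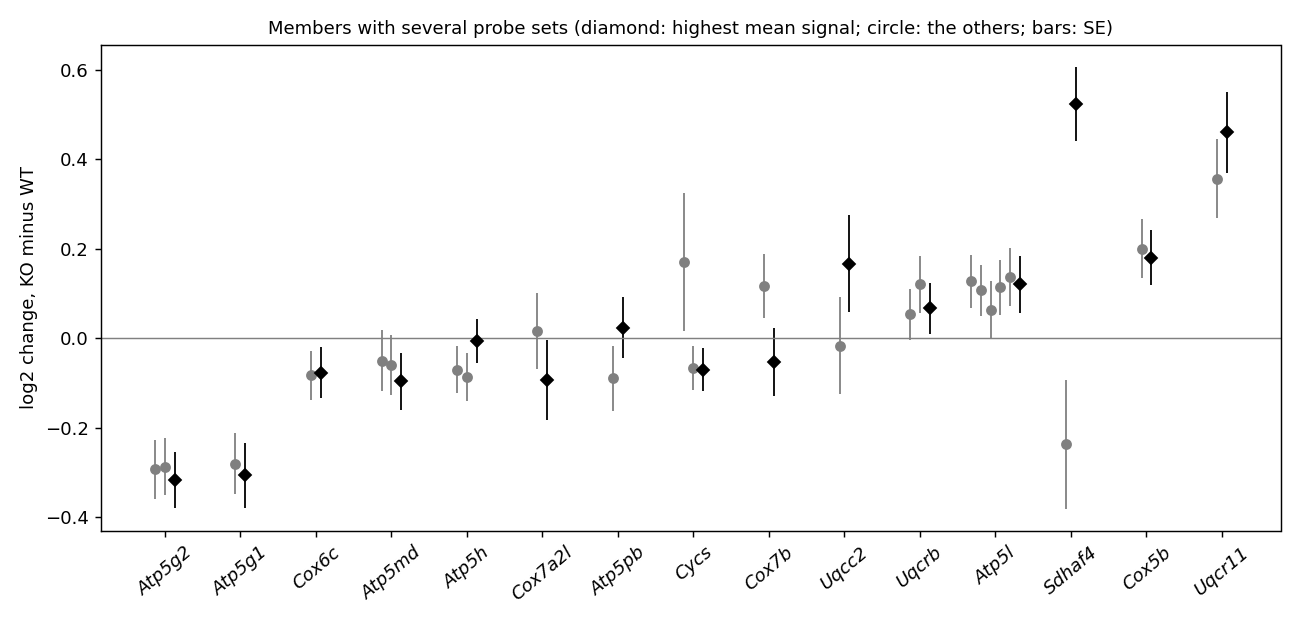
Log2 change (KO minus WT, y axis) of every probe set of the 15 members that have several; diamonds are the probe sets with the highest mean signal, circles the others, and bars the SE from limma. Those of Atp5g1, Atp5g2, Cox5b and Uqcr11 lie together, and those of Sdhaf4 lie at 0.52 and -0.24.

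Other genes of the pathway, whose symbols the rule does not take, had 1 of 29 tested, or 3.45%, with an unadjusted p under 0.05, against 13.7% of all probe sets. Tmem70, which helps build the c ring into the ATP synthase, measured 8.22, 8.19 and 8.07 in KO and 8.45, 8.44 and 8.43 in WT, a change of -0.28 (SE 0.06, limma adjusted p = 0.121). The median of the 29 was -0.01. A second, dimmer probe set of Higd1a, a complex IV factor, measured 0.36 higher without overlap (limma adjusted p = 0.271), while the brighter one gave 0.06. Ppargc1a and Ppargc1b, coactivators of mitochondrial genes, had log2 changes of -0.15 and -0.23 with overlap, and a second Ppargc1a probe set gave 0.21. Cmc2, an assembly factor of complex IV, had a log2 change of -0.13. Nrf1, Gabpa and Yy1, whose letters were searched in the promoters, had log2 changes of 0.16, 0.05 and -0.06, with overlap. The 11 listed genes that were not matched include the mitochondrially encoded subunits, which were not analysed here.

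Markers of other cell types were read on the same arrays. All 5 macrophage markers measured lower, with a median of -0.23 and 1 unadjusted p under 0.05, and all 4 smooth muscle markers measured higher, with a median of 0.25 and 2 such p. Their summed signals ran from 662.5 to 757.5 in KO and 752.7 to 1017 in WT for macrophages, and from 555.5 to 571.4 in KO and 436 to 559 in WT for smooth muscle. Of the endothelial and fibroblast markers, 0 of 5 in each list had such a p. The part of these cells in the members' values was not tested, and in tissue RNA fewer cells of a type and less RNA per cell cannot be told apart. When only the annotated probe sets were tested, 4 members passed the adjusted threshold in limma, Sdhaf4, Uqcr11, Atp5g2 and Atp5g1, with adjusted p of 0.0144, 0.0215, 0.0304 and 0.0477, where 2.01% of those probe sets passed.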

How the data were processed

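A single table, deposited by the authors, gives log2 signal for 35556 probe sets on 6 arrays. Per the labels, biotin-labelled cDNA made from total RNA was hybridised to Affymetrix arrays. MAS5 is named, without role or version, per the submitters' processing notes, and no label gives the background correction, summarization, scaling or build. That the scale is log2 was read from the values, which would exceed a scanner's range on another base. Values were used as deposited. In R 4.3.3, limma 3.58.1 (lmFit, eBayes with intensity trend) compared KO with WT over the 24898 probe sets with a mean at or above the 30th percentile, 3.45, and Benjamini-Hochberg adjustment ran across all of them. The fit was tested on simulated data. The number of arrays limits the precision. GEO's platform annotation gave 1 symbol to 21789 probe sets, while 1621 had several and 12146 none. Named genes are Cavin4, the 5 genes Uqcr11, Uqcrq, Sdhd, Cox8a and Atp5g1, the up to 6 subunits per complex and the 4 assembly factors with the smallest p, Cycs, the isoform pairs and the 4 other pathway genes with the smallest p. Other members are named once for completeness. The members and lists were chosen with earlier results of these data known. Choices made after values were seen are the split of members and probe sets by brightness, the 4 promoters, the 16 genes plotted by array, quantile normalization of the isoform pairs, the split by arrays left out and the roles of Atp5pb, Atp5md and Atp5mpl. Alternatives were quantile normalization, median centring, 2 filters, annotated probe sets, mean of a gene's probe sets, replicate block, age, no trend and each array left out.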

Additional observations from a re-analysis of the deposited data

How the results depend on the processing

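The number of probe sets past the adjusted threshold was 1 as reported, and it was 130 after quantile normalization, 105 after median centring, 48 with the 50th percentile filter, 361 over annotated probe sets and 34 with age as a covariate. With an array left out it ran from 0 to 11. Of the members, 11 were higher at an unadjusted p under 0.05 after quantile normalization and 3 without the intensity trend, against 6, and from 3 to 12 with an array left out. The share of all probe sets with such a p, in either direction, was 13.9% and 12.4% in the first 2, against 13.7%. It was from 9.24% to 13.4% with an array left out. The number of lower members stayed between 10 and 13 in every alternative, where that share ran from 9.24% to 15.9%. Of the other pathway genes, 2 had such a p over annotated probe sets and with age as a covariate, and from 1 to 2 with an array left out. The replicate numbers did not pair the samples, as deviations of same-numbered arrays correlated at -0.059, 0.021 and -0.057. With the replicate number as a block, 0 probe sets passed, 17 members and 2 other pathway genes had an unadjusted p under 0.05, and Cavin4, at -2.91, had an adjusted p of 0.0754. With an array left out Cavin4 measured from -3.115 to -2.775, and its adjusted p was above 0.05 without KO replicate 1, KO replicate 3 or WT replicate 1. With an array left out, the change of Cox7a1 relative to Cox7a2 ran from -0.0633 to 0.0917, that of Atp5g1 relative to Atp5g2 from -0.04 to 0.0850, Cox7a2 from -0.1317 without WT replicate 3 to 0.0483 without WT replicate 1, and Sdhb from -0.0267 to 0.0133. After quantile normalization Sdha measured 0.0306 and Sdhb 0.0444, and after median centring Sdhb measured 0.0133. Each median by complex and role moved from its reported value by less than the spread between arrays in the alternatives tried. Those of complexes II, III and IV and of the subunits still reached -0.0600, 0.0833, -0.0917 and -0.0467, each beyond its spread. The causes of these differences were not tested.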
